A study of Mus musculus with 65 samples.

Results

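The genes described here, 10 in number, belong to the hair cell mechanotransduction machinery: the channel genes Tmc1 and Tmc2, their partners Tmie, Lhfpl5, Cib2 and Tomt, the tip link cadherins Cdh23 and Pcdh15, and the hair bundle genes Loxhd1 and Clrn1. They were taken by name from a table of 55292 gene symbols, which held all 10. The table held counts from 65 single outer hair cells (OHCs) picked by hand from the mouse cochlea at postnatal day 10. In the WT group, 48 cells came from Slc26a5FlpO/+; Rosa26FSF-H2BEGFP/+ mice, in which a FlpO recombinase under Slc26a5 control turned on nuclear GFP. In the Casz1 CKO group, 17 cells came from mice that carried the same driver and reporter together with Atoh1Cre/+ and Casz1flox/flox, so this group also differed by the presence of a Cre recombinase, driven by Atoh1. The comparison asks whether loss of the zinc finger factor Casz1 goes with other levels of the genes that carry out transduction in OHCs. The labels name no animal, so each genotype was 1 sample, the cells were not replicates, and no test was run.

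Hair cells turn sound into current at the tips of their stereocilia. A tip link made of cadherin 23 at its upper end and protocadherin 15 at its lower end pulls on a channel whose pore is formed by TMC1 or TMC2. TMIE, LHFPL5 and CIB2 are parts of the channel complex, and TOMT is needed for TMC proteins to reach the bundle. In the mouse cochlea TMC2 is known as the early subunit, which TMC1 replaces after birth. Mutations in most of these genes cause deafness in humans and mice.

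The cells carried OHC transcripts. All 8 OHC markers and all 7 markers shared by hair cells stood at 5 counts per 1000000 (CPM) or more in both genotypes, against 1 of 5 inner hair cell markers. Totals ran from 7458126 to 17107710 counts per cell, with a median of 7586 genes detected in WT cells and 7417 in CKO cells. Casz1 itself stood at 53.3 CPM in WT and 46.2 CPM in CKO cells. Which exons were floxed is not in the labels, so sums over the whole gene do not check them, and the group is called CKO by its label. The sex pattern and mitochondrial transcripts moved with genotype. Xist was expressed without Y-linked genes in 9 of 48 WT cells and 15 of 17 CKO cells. The mitochondrial transcript mt-Co2 divided the WT cells by their number: 33.5 to 83.6 CPM for cells 1 to 11, 229 to 644 CPM for cells 12 to 45, and 100.1 to 111 CPM for cells 46 to 48, beside 94.8 to 283 CPM in CKO cells. The median share of mitochondrially encoded counts was 6.52% in WT cells, 4.53% in WT cells 46 to 48 and 4.76% in CKO cells. The labels name no batch, 8 of the 9 Xist-pattern WT cells lie in the first run, and the median total was 14216100 counts there and 10756700 in the second. Among markers of other cell types, the summed level of 5 neuron markers was 503 CPM in WT and 571 CPM in CKO cells, with 4 of the 5 at 5 CPM or more in both. The summed level of 10 supporting cell markers was 68.7 CPM in WT and 34.4 CPM in CKO cells, with Sox2, Prox1 and Hes1 at 0 in the latter, and that of 4 glial markers 125 and 64.9 CPM. Their part in the results was not tested. Ratios against each run and within Xist-pattern cells are therefore given below.

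Regulatory sequence was examined just before RefSeq start sites of the members. RefSeq windows of 250 bases were found for 8 of the 10 members, 9 windows in all, and 5 of these held no annotated exon. Printed below are the windows of Tmc1, the pore gene counted in every cell, and of the tip link pair, 1 of which was counted in nearly every cell and 1 of which was often missing. The coordinates are on GRCm38.p6, each sequence reads 5′ to 3′ on the strand of its gene, and capitals mark a TATAAA motif. The Pcdh15 window precedes a start that lies inside the longer span which GENCODE gives for the gene.

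Tmc1, minus strand, chr19:20954203-20954452: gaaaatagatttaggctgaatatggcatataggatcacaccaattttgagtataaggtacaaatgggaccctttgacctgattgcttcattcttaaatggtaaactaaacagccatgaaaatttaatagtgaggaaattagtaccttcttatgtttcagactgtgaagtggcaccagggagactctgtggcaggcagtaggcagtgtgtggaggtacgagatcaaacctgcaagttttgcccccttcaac
Cdh23, minus strand, chr10:60696491-60696740: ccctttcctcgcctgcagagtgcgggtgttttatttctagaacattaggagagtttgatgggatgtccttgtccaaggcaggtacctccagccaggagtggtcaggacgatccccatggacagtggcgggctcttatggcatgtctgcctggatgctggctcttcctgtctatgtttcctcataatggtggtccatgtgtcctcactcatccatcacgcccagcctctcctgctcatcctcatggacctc
Pcdh15, plus strand, chr10:73821617-73821866: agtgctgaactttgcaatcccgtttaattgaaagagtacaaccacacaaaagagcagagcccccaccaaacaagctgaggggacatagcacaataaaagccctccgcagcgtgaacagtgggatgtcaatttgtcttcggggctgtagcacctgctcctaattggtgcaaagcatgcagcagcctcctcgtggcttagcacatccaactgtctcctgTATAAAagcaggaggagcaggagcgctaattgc

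The motifs searched, on both strands, were the E-boxes CAGATG and CAGCTG, the TATA box TATAAA, and GTTGCC, a half-site of RFX factors. In the Pcdh15 window, TATAAA began 33 bases before the start, and 12.3% of 32536 windows of the same length held it. The windows of Tmc1 and Cdh23 held none of these. CAGCTG was found in 3 of the 9 member windows (Lhfpl5, Tmie and the second start of Tomt) and in 13.1% of all windows. CAGATG was found in 1 (Clrn1) and in 14.4% of all, and GTTGCC in 0 and in 10.3% of all. GC content of the printed windows was 41.2% for Tmc1, 54.4% for Cdh23 and 50.4% for Pcdh15, beside a median of 52.4% over all windows. These matches are a description of letters and not of binding.

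Tmc1 was the only channel gene of the pair with counts. Tmc1 (chromosome 19, 20783458 to 20954202, minus strand, GRCm38) was counted in all 65 cells. Its CPM per WT cell had a lowest value of 298, a median of 1065 and a highest value of 2651, and per CKO cell 524, 891 and 2081. The 2 ranges overlapped almost entirely: 1 WT cell lay below and 1 above the CKO range. Pooled over cells, Tmc1 stood at 1125 CPM in WT (95% Poisson interval 1123 to 1128) and 982 CPM in CKO (978 to 987), a log2 ratio of -0.20, and the WT cell was higher in 60.7% of all pairs of 1 WT and 1 CKO cell. Such intervals cover counting error of reads that carry no molecular identifiers, and leave out differences between cells and animals. Tmc2 (chromosome 2, 130195194 to 130264445) had 0 counts in all 65 cells. Taken as 3 over the number of cells, the limit is a share of up to 4.62% of these cells with a count, 6.25% of WT and 17.6% of CKO cells, and 3 counts over all cells allow a pooled level of up to 0.0040 CPM. These limits cover counting error only. Tmc2 was thus not detectable in either genotype at this depth.

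Lhfpl5 and Cib2 were counted in every cell and at high levels. Of the genes within 1.5 times their pooled WT levels, 98.8% (of 83 genes) and 100.0% (of 9) were also counted in every WT cell. Lhfpl5 (chromosome 17, 28575641 to 28585679), whose product joins protocadherin 15 to the channel, ran from 339 to 2601 CPM in WT cells with a median of 1233, and from 805 to 1823 CPM in CKO cells with a median of 1277. The CKO cells lay inside the WT range, with 9 WT cells below them and 7 above. The pooled values were 1274 and 1256 CPM, a log2 ratio of -0.02, and 98.0% of genes tested had a larger absolute ratio. Cib2 (chromosome 9, 54544794 to 54560218) encodes a calcium-binding protein of the complex. WT cells ran from 3073 to 6922 CPM (median 4710) and CKO cells from 2970 to 5430 CPM (median 4343). Of the WT cells, 14 lay above the highest CKO cell, and 1 CKO cell lay below the lowest WT cell. Pooled Cib2 was 4867 CPM in WT and 4353 CPM in CKO (log2 ratio -0.16). That ratio was -0.37 against WT cells 1 to 11, -0.07 against WT cells 12 to 45 and -0.11 against WT cells 46 to 48. Of the exon bases of Cib2, 15.8% are shared with Sh2d7 on the opposite strand, and Sh2d7 was listed at 0.159 CPM in WT and 0.0050 CPM in CKO cells. How far shared reads enter the Cib2 value was not tested.

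Tmie and Tomt stood lower and differed in how evenly they were found. Tmie (chromosome 9, 110865711 to 110880113) had a count in 43 of 48 WT cells (89.6%, exact binomial 95% interval 77.3% to 96.5%) and 16 of 17 CKO cells (94.1%, 71.3% to 99.9%). The intervals take the cells as independent, cover counting error only and say nothing of other animals. It ran from 0 to 297 CPM in WT cells with a median of 89.8, and from 0 to 534 CPM in CKO cells with a median of 96.1. The medians lay close together, while 3 CKO cells were above every WT cell. The pooled ratio rested partly on those cells: 137 CPM in CKO against 93.4 CPM in WT, a log2 ratio of 0.55, which was 0.34 without CKO cell 16 and 0.10 between the medians over cells. Als2cl, on the opposite strand, shares 7.89% of the exon bases of Tmie and stood at 8.47 CPM in WT and 1.18 CPM in CKO cells. Tomt (chromosome 7, 101898370 to 101906359) was counted in every cell. It ran from 31.1 to 346 CPM in WT cells (median 131) and from 62.9 to 239 CPM in CKO cells (median 139), with pooled values of 127 and 144 CPM and a log2 ratio of 0.17. Of the exon bases of Tomt, 69.3% are shared with Anapc15 on the opposite strand, and without a stated strand setting the reads of the pair could not be told apart. Anapc15 was listed at 9.84 CPM in WT and 9.22 CPM in CKO cells, and its rank correlation with Tomt was 0.14 over 48 WT and -0.14 over 17 CKO cells. How far shared reads enter the Tomt value was not tested.

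**Figure D1:**
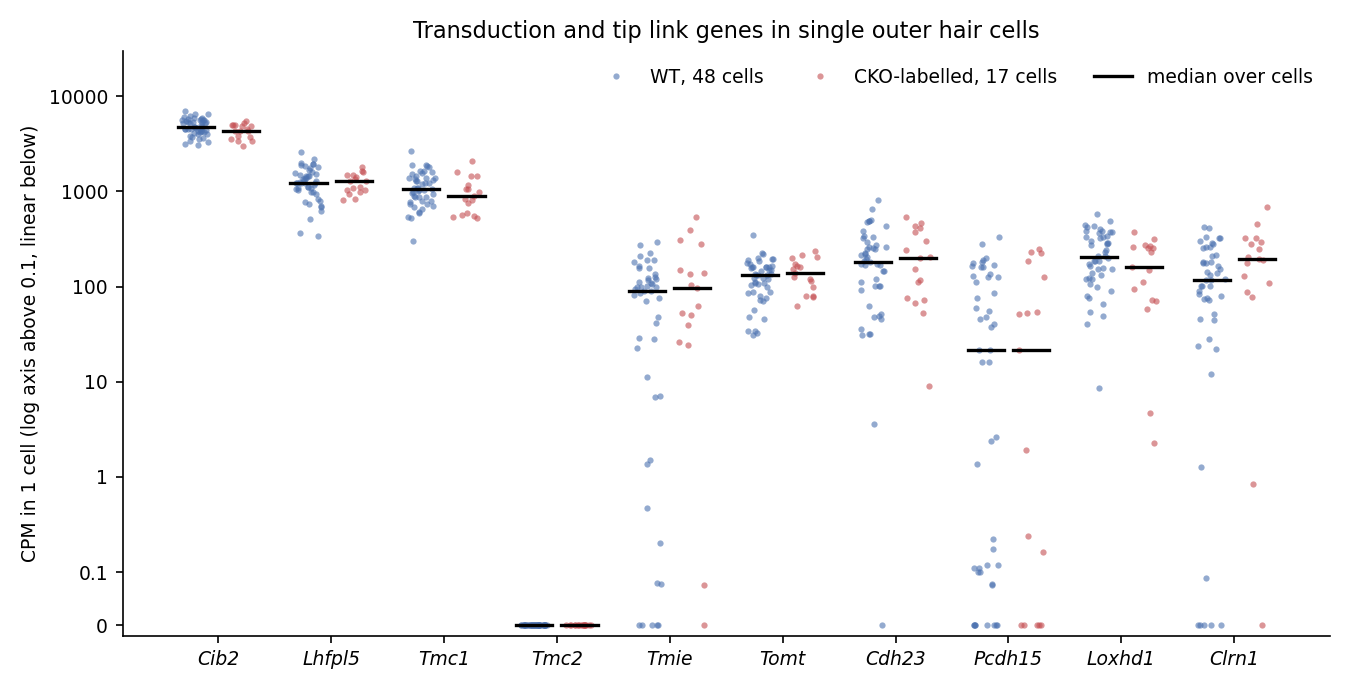
CPM of each of the 10 genes in every single cell (vertical axis, logarithmic above 0.1 CPM and linear below), with 48 WT cells in blue, 17 CKO-labelled cells in red and the median over cells as a black bar. Cib2, Lhfpl5, Tmc1, Tomt and Loxhd1 have counts in every cell, Tmc2 in none, and Pcdh15 has cells near 0 beside cells spread widely above 10 CPM.

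The 2 tip link cadherins were found unequally. Cdh23 (chromosome 10, 60302748 to 60696490), the upper part of the link, had a count in 47 of 48 WT and 17 of 17 CKO cells. WT cells had a lowest value of 0, a median of 183 and a second highest value of 659 CPM, with 1 cell above that, and CKO cells ran from 8.99 to 539 CPM (median 201). The CKO cells lay inside the WT range, with 2 WT cells below and 2 above them. The pooled values were 215 and 221 CPM, a log2 ratio of 0.04. The sign of that ratio turned when any of 7 single cells was left out (-0.08 without CKO cell 6). Pcdh15 (chromosome 10, 73099342 to 74649737), the lower part, had a count in 40 of 48 WT cells (83.3%) and 12 of 17 CKO cells (70.6%). With at least 10 counts required, the numbers were 30 and 10. Its level was spread widely: 21 of 48 WT and 8 of 17 CKO cells held less than 10 CPM, while 15 and 5 cells held at least 100.0 CPM. The remaining cells of both genotypes lay between these levels, so the highest cells formed no separate group. The medians over cells were 21.6 CPM in both genotypes, and the highest cells 335 CPM in WT and 249 CPM in CKO. The pooled values of 68.6 CPM in WT and 79.3 CPM in CKO gave a log2 ratio of 0.21, which was -0.04 without CKO cell 14 and -0.02 without CKO cell 3.

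Cells with little Pcdh15 had somewhat lower median totals and gene numbers than the rest, and the part of depth was not tested. The 29 cells under 10 CPM had a median total of 11291300 counts and 7377 genes, and the other 36 cells 11987600 counts and 7633 genes. The median of Slc26a5 (prestin, the OHC motor) was 641 CPM in the first set and 1024 CPM in the second, and of Myo7a 169 and 229 CPM. Cells under 10 CPM of Tmie or of Clrn1 also had lower Slc26a5, 633 against 994 CPM and 466 against 950 CPM. Their Myo7a median was 201 against 196 CPM for Tmie and 147 against 198 CPM for Clrn1. Of the 15 cells low in Tmie, 2 were CKO cells and 11 were WT cells 12 to 45. Among the other 50 these numbers were 15 and 23. Slc26a5 itself had a median of 650 CPM in WT and 1292 CPM in CKO cells. The part of genotype and run in these medians was not tested. Of the WT runs, 4 of 11, 17 of 34 and 0 of 3 cells were under 10 CPM of Pcdh15. Both cadherins stood at 10 CPM or more in 26 of 48 WT and 9 of 17 CKO cells. Cdh23 alone did so in 20 and 7 cells, and Pcdh15 alone in 1 and 0. Genes at the pooled WT level of Pcdh15 (within 1.5 times, 2031 genes) had a count in a median of 39 of 48 WT cells beside 40 for Pcdh15, so at this level a gene was usually missing from some cells. In CKO cells genes of like level had a median of 14 of 17, beside 12 for Pcdh15. For other members, genes of like WT level had a count in a median of 42 WT cells beside 43 for Tmie, 47 beside 47 for Cdh23 and 46 beside 43 for Clrn1. Counted in every WT cell were 100.0% of genes at the level of Tmc1, 54.1% at that of Loxhd1 and 15.4% at that of Tomt.

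Loxhd1 and Clrn1 gave the lowest and the highest ratio of the members. Loxhd1 (chromosome 18, 77281958 to 77442930) encodes a stereocilia protein made of PLAT domains, needed for hair cell function. It was counted in every cell and ran from 8.51 to 576 CPM in WT cells (median 204) and from 2.27 to 371 CPM in CKO cells (median 162). The highest 10 WT cells lay above all CKO cells and the lowest 2 CKO cells below all WT cells, with the rest overlapping. Pooled Loxhd1 was 232 CPM in WT (230.9 to 233.5) and 166 CPM in CKO (164 to 168), a log2 ratio of -0.49, and the WT cell was higher in 63.0% of pairs. These intervals cover counting error only and leave out differences between cells and animals. Between the WT runs, in order of cell number, pooled Loxhd1 was at 210, 230 and 348 CPM. Clrn1 (chromosome 3, 58844028 to 58885340) encodes clarin 1, a membrane protein of hair cells that is mutated in Usher syndrome. It had a count in 43 of 48 WT and 16 of 17 CKO cells, from 0 to 419 CPM in WT (median 117) and from 0 to 681 CPM in CKO (median 194). Apart from 2 CKO cells above the highest WT cell, the ranges coincided. Pooled Clrn1 was 222 CPM in CKO and 146 CPM in WT, a log2 ratio of 0.61 that ran from 0.40 without CKO cell 9 to 0.70 without CKO cell 7, and the CKO cell was higher in 65.4% of pairs.

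Levels of different genes were compared per kilobase of exon, on the exon union of GENCODE M21. In WT cells Cib2 led with 3397 CPM per kb, followed by Lhfpl5 with 533 and Tmc1 with 157. Then came Tomt with 44.6, Clrn1 with 37.7, Tmie with 30.2, Loxhd1 with 26.1, Cdh23 with 12.7 and Pcdh15 with 2.89 CPM per kb. The first steps of this order held in single cells: Cib2 per kb was above Lhfpl5 in 48 of 48 WT and 17 of 17 CKO cells, Lhfpl5 above Tmc1 in 46 and 17, and Tmc1 above Tomt in 48 and 17. The middle of the order did not hold in that way. Tomt was above Clrn1 in 29 of 48 WT and 6 of 17 CKO cells, Clrn1 above Tmie in 26 and 10, and Tmie above Loxhd1 in 22 and 11, so these neighbours did not differ beyond the spread of the cells. Cdh23 per kb was above Pcdh15 in 41 of 48 WT and 14 of 17 CKO cells. The order in CKO cells differed only in that Clrn1 (57.6 CPM per kb) came before Tomt (50.3). Lengths of the longest transcript in place of the exon union gave Clrn1 47.2 and Tomt 45.5 CPM per kb in WT cells and left the other ranks in place. Tomt shares 69.3% of its exon bases with Anapc15, which leaves its place uncertain. Cdh23 and Pcdh15 had the longest exon unions of the members, 16.9 and 23.8 kb. The part of length in their low places was not tested.

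**Figure D2:**
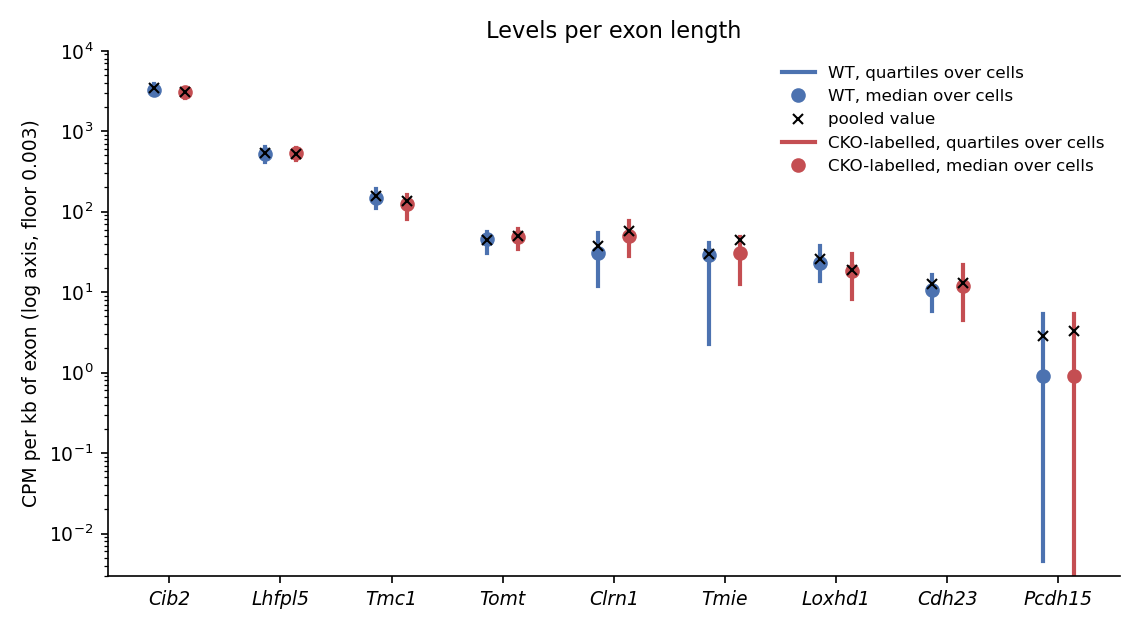
Level of each member with counts in CPM per kb of exon union (logarithmic vertical axis, cut at 0.003), as median (point) and quartiles (line) over the cells of each genotype and the pooled value (cross). Cib2, Lhfpl5 and Tmc1 stand above the rest and Pcdh15 lowest, in both genotypes.

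None of the members differed 2-fold between the genotypes. Of the 9 with counts, 5 were higher and 4 lower in CKO cells and 0 were at least 2-fold apart, where 29.5% of all 10842 genes with at least 5 CPM in the higher genotype were (15.1% higher and 14.5% lower in CKO). Genes of the members' level differ less often: with at least 60 CPM, a minimum chosen after the levels of the members were known, the share was 9.15% of 3606 genes. It was 17.9% with at least 20 CPM and 49.7% with no minimum. The median log2 ratio of the 9 was 0.04, beside 0.01 over all genes tested. For Clrn1, 46.7% of all genes and 25.2% of genes with at least 60 CPM had a larger absolute ratio. For Loxhd1 these shares were 54.5% and 34.9%, and for Tmie 50.2% and 29.8%. The ratios of the members are thus of a size common among genes of these libraries.

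Which WT cells were used moved several ratios. Against WT cells 1 to 11 the log2 ratio of Tmie was -0.01, and against WT cells 12 to 45 it was 0.95. Tmie stood at 138 CPM in the first run, 70.9 CPM in the second and 124 CPM in WT cells 46 to 48. Cdh23 went the other way, at 140 CPM, 240 CPM and 300.1 CPM in the same order, with log2 ratios of 0.66, -0.12 and -0.44. Pcdh15 had log2 ratios of -0.08 and 0.59 against the first 2 runs, and against the last it stood at 79.3 CPM in CKO and 159 CPM in WT cells. Clrn1 kept a positive ratio, at 0.25, 0.87 and 0.16, and Loxhd1 a negative one, at -0.34, -0.47 and -1.07. Tmc1 (-0.12, -0.20, -0.50), Cib2 (-0.37, -0.07, -0.11) and Tomt (0.33, 0.10, 0.29) also kept their sign, with sizes that changed. In Xist-pattern cells, 9 WT and 15 CKO, the log2 ratio was 0.33 for Clrn1, -0.22 for Loxhd1, 0.42 for Tmie, 0.55 for Cdh23 and -0.32 for Cib2. The part of sex and of the runs in these ratios was not tested beyond these values. At least 2-fold apart were 0 of 9 members in Xist-pattern cells (43.4% of genes tested) and 0 of 9 against the first 2 runs (40.1% and 32.9%). Against the 3 cells of the last run, Loxhd1 and Pcdh15 were past 2-fold, 2 of 9 members, with 55.1% of genes.

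**Figure D3:**
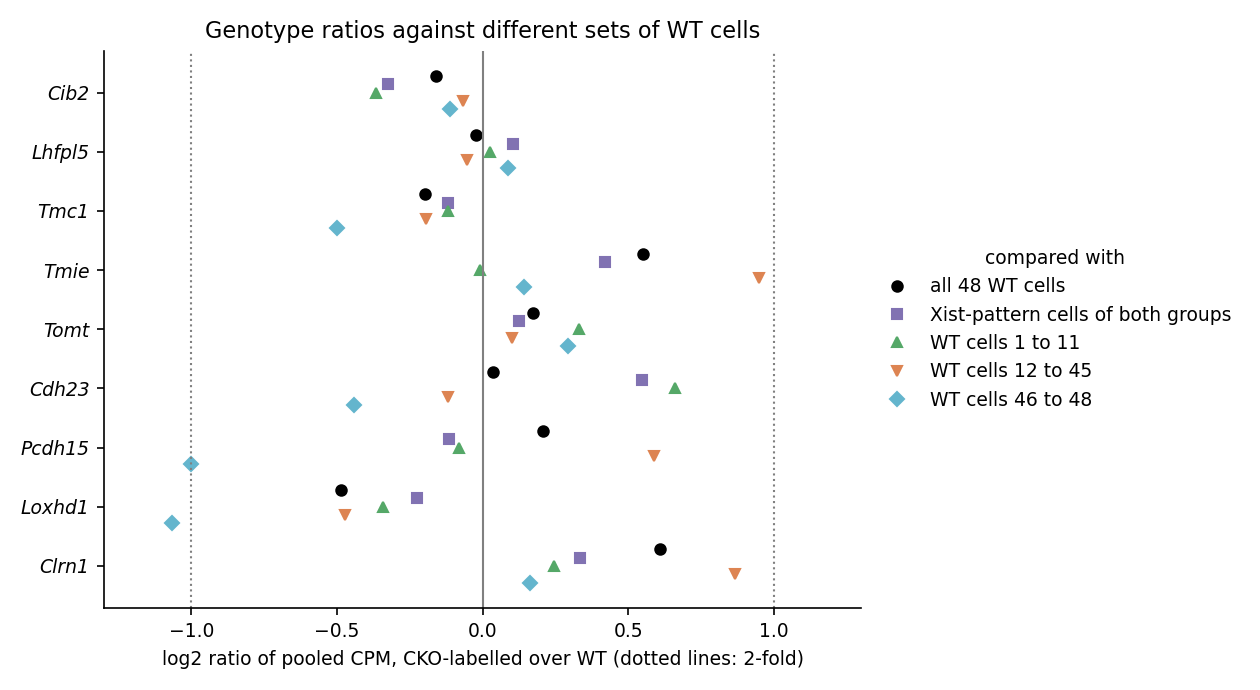
Log2 ratio of pooled CPM, CKO-labelled over WT (horizontal axis, dotted lines at 2-fold), for each member with counts against all 48 WT cells, against each run of WT cell numbers, and within Xist-pattern cells. Clrn1 and Tomt lie to the right of 0 and Loxhd1, Tmc1 and Cib2 to the left in all 5 sets, while Tmie, Lhfpl5, Cdh23 and Pcdh15 cross 0.

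The members also differed between the WT runs. Between WT cells 12 to 45 and WT cells 1 to 11 the log2 ratio was -0.96 for Tmie, 0.78 for Cdh23, -0.67 for Pcdh15, -0.62 for Clrn1 and -0.30 for Cib2, and between 0.08 and 0.23 for the other 4. None of the 9 members was 2-fold apart there, with 35.5% of genes past that line. That share covers genes with at least 5 CPM in the higher run and was not taken at the level of the members. Cib2, though its ratio was small, separated the runs most: a cell of the first run was higher in 80.5% of the 374 pairs. It spanned 4022 to 6922 CPM in the first run and 3073 to 6430 CPM in the second.

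By relative spread Cib2 was the steadiest of the genes with at least 5 CPM. Its coefficient of variation (SD over mean of CPM across cells) was 0.195 over 48 WT cells, and 0 of the 9776 genes with at least 5 CPM in WT had a lower one. In the 17 CKO cells it was 0.171, and again 0 of 9802 genes lay lower. Its highest WT cell was 2.25 times its lowest. The spread of a gene narrows with its level, so members were also set beside genes of like level. Of 9 genes within 1.5 times the WT level of Cib2 and of 13 in CKO, 0 had a lower coefficient, and their medians were 0.311 and 0.350. Tomt was steady for its level too, at 0.472 in WT and 0.374 in CKO cells, where 0.883% of 1359 and 1.08% of 1199 genes of like level were lower. Tmc1 (0.397 in WT) and Lhfpl5 (0.375) varied like their neighbours, with 58.1% and 54.2% of genes of like level lower. In CKO cells Lhfpl5 was at 0.240, with 8.86% lower. Cdh23 (0.800), Clrn1 (0.831), Tmie (0.894) and Pcdh15 (1.28) were wider in WT cells but within the span of genes at their levels, with 26.4% to 74.8% lower. Loxhd1 (0.584) had 27.5% lower. These comparisons were chosen after the values per cell were seen.

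**Figure D4:**
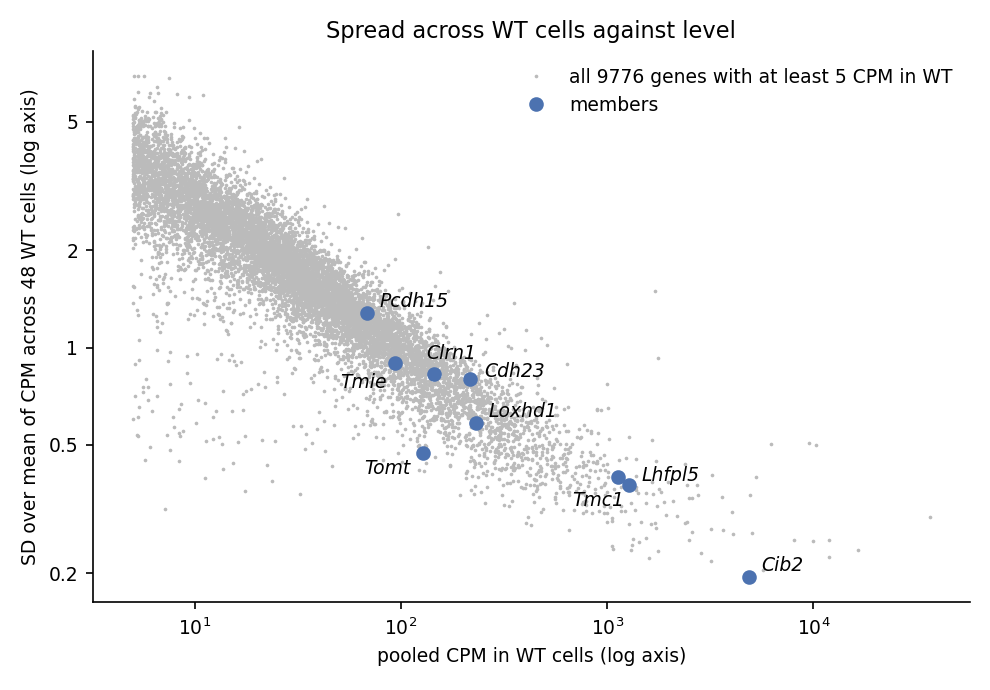
SD over mean of CPM across the 48 WT cells (vertical axis, logarithmic) against pooled WT CPM (horizontal axis, logarithmic), with all 9776 genes of at least 5 CPM in grey and the 9 members with counts in blue. Cib2, at 0.195, is the lowest point of the plot, and Tomt lies at the lower edge of the genes of its level.

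Across all WT cells, pairs of members had rank correlations near 0 from cell to cell, as did gene pairs at large. Over the 48 WT cells the Spearman rho of CPM for the 36 pairs of members ran from -0.25 to 0.22 with a median of 0.00, and 18 were above 0. Over all pairs of the 5444 genes with at least 20 CPM and a count in 50% of WT cells, the median was 0.01, 52.5% were above 0, and the 5th and 95th percentiles were -0.24 and 0.26. Over all 65 cells the range was -0.33 to 0.21, and within WT cells 12 to 45 it was -0.53 to 0.34. All pairs share the library total as denominator. The highest value over WT cells was that of Tmc1 with Pcdh15, 0.22, which was 0.06 within WT cells 12 to 45. The tip link pair Cdh23 and Pcdh15 stood at -0.01, and Tmc1 with Lhfpl5 at 0.08. The lowest within WT cells 12 to 45 were Tmie with Cib2 (-0.53), Cib2 with Loxhd1 (-0.42) and Loxhd1 with Clrn1 (-0.41). These 3 of 36 member pairs (8.33%) had an absolute rho of at least 0.4 in that run, beside 2.59% of all gene pairs. The 5th and 95th percentiles of all pairs there were -0.29 and 0.31. At least 1 count of every member but Tmc2 was found in 33 of 48 WT and 11 of 17 CKO cells. A further 11 and 5 cells missed 1 of the 9, and 4 and 1 cells missed 2.

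**Figure D5:**
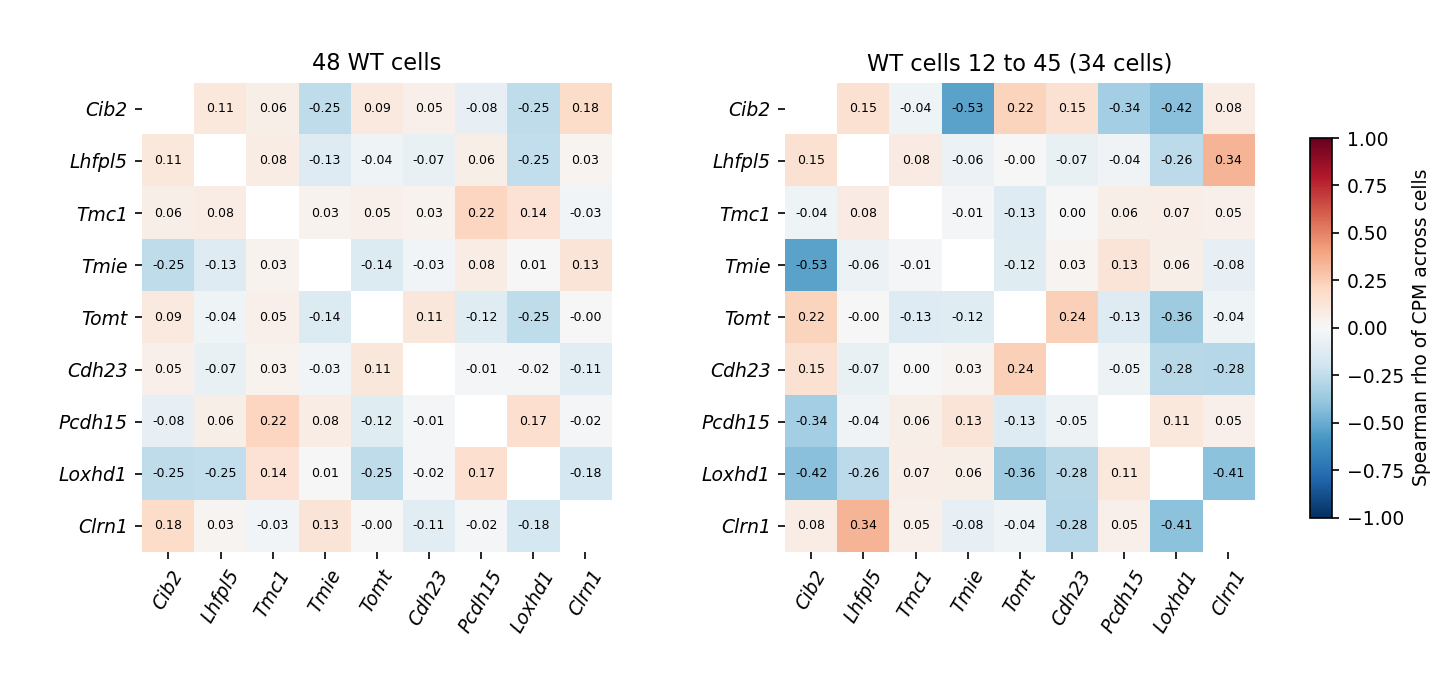
Spearman rho of CPM across cells for each pair of the 9 members with counts, over 48 WT cells (left) and over WT cells 12 to 45 (right), on a colour scale from -1 to 1. Values on the left lie between -0.25 and 0.22, and the strongest on the right is -0.53 for Tmie and Cib2.

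For each member, the genes most like it in level across WT cells were listed. Nearly all candidates lay outside the list of members, so it says little that none of these genes was a member. Among 5443 candidates, Ocm, which encodes the calcium buffer oncomodulin of OHCs, was most like Cib2 (rho 0.66 over 48 WT cells). That value was 0.77 in WT cells 1 to 11, 0.56 in WT cells 12 to 45, and 0.44 in the 17 CKO cells, which the choice had not used. Rn7sk (0.57) and Ubl5 (0.54) followed for Cib2, and had 0.23 and -0.17 in CKO cells; 54.5% of the exon bases of Ubl5 are shared with Fbxl12 on the opposite strand. For Tomt the most alike were Cops9 (0.61, and 0.33 in CKO), Nop16 (0.53, and 0.54) and Ctbp2 (0.53, and 0.01). For Tmie they were Tmem101 (0.55, and 0.62 in CKO), Ubr3 (0.52, and -0.04) and Prkcsh (0.51, and -0.29). For Lhfpl5 they were Itm2b (0.56, and 0.21 in CKO), Pdzph1 (0.52, and 0.18) and Ctps2 (0.47, and 0.41). Cdh23 had Stip1 (0.62, and 0.04), Map4k2 (0.51, and 0.23) and Ubtd1 (0.48, and 0.00). Clrn1 had Otulin (0.63, and -0.24), Cog5 (0.55, and -0.39) and Muc15 (0.52, and 0.06). Loxhd1 had Spire1 (0.51, and 0.08), Rpl22l1 (0.49, and 0.03) and Plrg1 (0.49, and -0.24). Tmc1 had Dscaml1 (0.46, and 0.31), Cdkn2aip (0.43, and 0.03) and Mpp7 (0.42, and 0.11), and Pcdh15 had Fbxo38 (0.54, and 0.40), Rbm24 (0.49, and -0.14) and Nt5c3b (0.48, and 0.25). Each WT value was picked as among the highest of 5443, which favours a high number.

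Paralogues of the members were mostly under 5 CPM, as was the table as a whole, where 10842 of 55292 symbols reached that level in the higher genotype. Of 17, 7 had 0 counts in all 65 cells (Tmc3, Tmc5, Tmc7, Cib3, Cib4, Lhfpl1 and Clrn3), and 5 stayed under 5 CPM in both genotypes. Tmc6 and Tmc8, of the TMC family, were among those under 5 CPM, and Tmc4 stood at 31.4 CPM in WT and 27.3 CPM in CKO cells. Clrn2, a relative of Clrn1 that hair bundles also need and that stood under 5 CPM in both genotypes of the Xist-pattern set, was at 3.83 CPM from 1 CKO cell and 12.6 CPM from 13 of 48 WT cells, a log2 ratio of -1.72 that was 1.16 in Xist-pattern cells. Cib1 was at 70.3 against 99.0 CPM. Of the Piezo channels, Piezo2, which carries another mechanical current of hair cells, had 0 counts, and Piezo1 was at 0.0858 CPM in WT and 0.616 CPM in CKO cells.

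Genes of the upper tip link anchor and of other bundle links did not share a direction that held across the WT runs. Of 4 anchor genes, 2 reached 5 CPM over all cells. Ush1c, the gene of the scaffold harmonin, was at 422 CPM in CKO and 305 CPM in WT cells (log2 ratio 0.47), with counts in every cell, and higher in the CKO cell in 69.2% of pairs. Its log2 ratio was 0.18, 0.67 and 0.05 against the WT runs in order of cell number, and 0.25 in Xist-pattern cells. Myo7a, the myosin that binds harmonin at the anchor, was at 199 against 247 CPM (-0.31), and at 206 against 175 CPM in Xist-pattern cells. Ush1g and Myo1c stayed under 5 CPM in both genotypes. Of 8 genes of other links all were measured, 2 higher and 6 lower in CKO cells with a median log2 ratio of -0.44, and 0 at least 2-fold apart (29.5% of genes tested). Against WT cells 1 to 11 the same genes gave 5 higher and 3 lower with a median of 0.26, and in Xist-pattern cells 5 and 3 with a median of 0.21. Against WT cells 12 to 45 they gave 1 higher and 7 lower with a median of -0.32, and against WT cells 46 to 48 5 higher and 3 lower with a median of 0.40. At least 2-fold apart were 1 of 8 in Xist-pattern cells (43.4% of genes), 1 against the first run (40.1%), 2 against the second (32.9%) and 5 against the last (55.1%). Whrn, an ankle link scaffold, was at 6.26 against 12.03 CPM (-0.94), Pkhd1l1, a stereocilia coat protein, at 9.48 against 18.1 CPM (-0.93), and Vezt, an ankle link protein, at 12.9 against 19.7 CPM (-0.61). Each had counts in under 50% of the cells of either genotype, and each turned sign with the WT cells used. For Whrn the pooled level of the 3 WT runs, in order of cell number, was 0.180, 18.4 and 0 CPM. The log2 ratio of Pkhd1l1 was 0.44 against the first run and 0.28 in Xist-pattern cells, and that of Vezt 0.31 and 0.15.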

How the data were processed

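The authors deposited whole-number counts per gene symbol for 65 cells, and all columns matched 1 sample title. Per the labels' protocols, full-length cDNA was made with a Smart-Seq HT kit, without molecular identifiers. That protocol names picked IHCs and iOHCs, whereas the sample titles and the design text name OHCs. Per the submitters' processing notes, HISAT2 2.2.1, StringTie 2.2.1, featureCounts 2.0.1 and mm10 were used; for their roles, the annotation, the strand setting and filters, the sources used here say nothing. GENCODE M21 (96.4% of symbols matched) gave positions, exon lengths and overlaps.

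Counts were summed per genotype and divided by summed totals (CPM). Intervals are 95% and exact (Poisson, binomial); the limit for a gene with 0 counts in every cell is 3 over the total. A gene without counts in 1 genotype was set to 3 counts; ties in pairs counted 0.5. Genes with at least 5 CPM in the higher genotype were read against the 2-fold line. The Xist pattern means at least 10 Xist counts and fewer than 10 summed over 4 Y-linked genes (Kdm5d, Ddx3y, Eif2s3y, Uty). Cells were picked singly and no doublet caller was run. The ratio calculation was run on simulated cells with known changes. These cells had no run, sex or animal effects, so that check says nothing of such effects. Tools were Python 3.11.15, scipy 1.17.1, edgeR 4.0.16 and DESeq2 1.42.0, the last 2 for scaling factors.

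Named were the members; for each, the 3 genes with the highest rho over WT cells among named genes with at least 20 CPM and a count in 50% of WT cells; and up to 3 genes of largest ratio per list. Members, lists, runs and settings were chosen with earlier results of these data known. Part of the results of the paralogue list is not reported here.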

Additional observations from a re-analysis of the deposited data

How the results depend on the processing

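Ratios of the 9 members with counts were recomputed under 10 settings. Of 90 values 12 had the opposite sign, and 5 members (Tmc1, Cib2, Tomt, Loxhd1 and Clrn1) had none; the 12 belonged to Lhfpl5, Cdh23, Pcdh15 and Tmie. The median log2 ratio of the members stood between -0.11 (against WT cells 46 to 48) and 0.10 (Xist-pattern cells). It was -0.01 with edgeR TMM factors, 0.08 with DESeq2 median-of-ratios factors, 0.01 with ribosomal protein and mitochondrially encoded genes left out of the total, 0.04 with cells thinned to 7000000 counts or with the mean of per-cell CPM, and between -0.06 and 0.13 when each cell was left out in turn. No member was past 2-fold under these settings except against WT cells 46 to 48, where 2 were; the cause was not tested, and that run holds only 3 cells. The share of all genes past 2-fold was 17.9% with a minimum of 20 CPM and 9.15% with 60 CPM (added after seeing the data), against 49.7% with no minimum. No paired analysis was possible because the numbers in the titles only name single cells, and there was no test to pair.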
